A study of Rattus norvegicus with 6 samples.

Results

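Translation initiation factors are the proteins that bring a ribosome, the initiator transfer RNA and a messenger RNA together at a start codon. They were taken here as all non-control probes of the array whose RefSeq accession maps to a rat gene symbol that starts with Eif1 to Eif6, leaving out the eIF2 kinases (Eif2ak). The rule gave 35 of the 24684 probes on the array, for 34 of its 13903 named genes, and used no measured value. Of these genes 5 belong to eIF1, 8 to eIF2, 9 to eIF3, 10 to eIF4 and 2 to eIF5. The gene Eif4b had a pair of probes and each of the other 33 genes had a single probe. Of the 34 genes, 31 had a probe that stood well above background on 3 or more of the 6 scans, and these were tested. The 3 others were Eif2s1, above background on no AP scan and on 2 control scans, and Eif4e3 and Eif4g3, above background on no scan.

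The series holds 6 scans of 1-colour Agilent arrays of rat pancreas, 3 labelled acute pancreatitis (AP) and 3 labelled control. Per the labels, all rats were males of 6 weeks, and AP, an inflammation of the gland, was made by running 1 mL/kg of 4% sodium taurocholate, a bile salt, backwards into the pancreatic duct, with tissue taken after 9 h; what the control rats received is not stated, nor is the strain. In both groups scan 3 was a second scan of the array of scan 2, in the same slot of the slide: deviations of single spots from their probe mean correlated with r = 0.992 in the AP pair and 0.993 in the control pair, against 0.199 to 0.741 in the 13 other pairs of scans (spots of an array are no replicates of each other). The scans of an array were averaged, which left 4 arrays, n = 2 per group. The p-values and SE rest on the spread between these arrays, moderated by that of all tested probes (2 residual and 1.71 prior degrees of freedom). The AP arrays lay in slots 3 and 4 and the control arrays in slots 1 and 2, so slot and group cannot be told apart.

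Signals are given on the log2 scale as the distance from the 75th percentile of all signals of an array. That percentile was a signal of 70.2 to 77.7 on AP scans and 140 to 147 on control scans, so each fold change is relative to the whole array: the median log2 fold change (AP minus control) over 8732 genes was -0.03 with this scaling and -0.99 without it. Of 16 tested acinar markers, 9 were higher on the AP arrays and none was lower. The log2 of their summed signals was 6.72 to 6.86 on AP arrays and 6.49 to 6.51 on control arrays. On the control arrays the neutrophil, adipocyte, erythroid and fibroblast sums below were larger, and on the AP arrays the lymphocyte sum was larger. Signals of markers of other cell types differed between the groups. Of the T and B lymphocyte markers 11 of 12 were higher and 1 was lower. The log2 of their summed signals was 6.90 to 7.06 on AP arrays and 2.31 to 2.50 on control arrays. Lower on the AP arrays were 4 of 7 neutrophil markers (1.12 to 1.69 on AP and 6.64 to 6.89 on control arrays), 7 of 8 adipocyte markers (4.10 on both AP arrays, 8.84 to 8.85 on control arrays), 5 of 6 erythroid markers (4.92 to 4.96 on AP and 9.32 to 9.52 on control arrays) and 7 of 10 fibroblast markers (5.62 to 5.88 on AP and 7.57 to 8.25 on control arrays). The lists were not uniform: 2 neutrophil markers (Ncf1 and Fcgr3a), 1 erythroid marker (Hemgn) and 1 fibroblast marker (Fap) were higher on the AP arrays. The brightest members weigh most in a sum, such as Slpi (6.36 and 6.64 on control arrays) in that of the neutrophil markers. Other lists were mixed, with 4 of 7 duct markers lower and 1 higher, and 2 of 6 islet markers lower and 2 higher. Of 10 macrophage markers 2 were lower and 2 higher, and of 3 endothelial markers 2 were lower and 1 higher. Since a tested gene stood well above background on 3 or more of the 6 scans, no tested marker could be at background in both groups. On the AP arrays 2 neutrophil markers (S100a8 and Csf3r), 2 duct markers and 1 erythroid, 1 lymphocyte, 1 islet and 1 macrophage marker were not well above background. On the control arrays 2 lymphocyte markers, 1 islet and 1 macrophage marker were not. These shifts stand beside every result below and their part in it was not tested. In whole tissue, fewer cells of a type and less RNA per cell cannot be told apart, and each direction follows the deposited labels.

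Initiation in animals starts when eIF2, loaded with GTP and the initiator transfer RNA, joins the small ribosomal subunit together with eIF1, eIF1A and the large scaffold eIF3. The messenger RNA is brought in by eIF4F, in which eIF4E holds the cap, eIF4G is the scaffold and eIF4A, helped by eIF4B or eIF4H, unwinds the leader. Both ends are regulated: kinases that phosphorylate eIF2 block its recharging by eIF2B, and the eIF4E-binding proteins (4E-BPs) hold eIF4E back unless the kinase mTORC1 phosphorylates them. The exocrine pancreas has one of the highest rates of protein synthesis of any tissue, and in rat acini the hormone cholecystokinin acts on this 4E-BP step.

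Messenger RNAs of initiation factors were mostly lower on the arrays labelled AP. Of the 31 tested genes, 17 were lower and 2 were higher, Eif1ad and Eif4b, at an adjusted p below 0.05 (limma, Benjamini-Hochberg over 13217 probes), and 12 were not past the threshold. This is 54.8% lower and 6.45% higher, where over all 8732 genes 56% were past the threshold, 31.9% lower and 24.1% higher. The median log2 fold change of the factors was -0.61. Over the 28 genes above background on all 6 scans the range was -2.79 for Eif4ebp1 to 0.56 for Eif4b. The 3 others, Eif1ad, Eif3b and Eif4ebp2, passed the filter only through the group where they are high. With these left out by a filter on all 6 scans, 16 of 28 factors were lower and 2 higher, Eif4b and Eif2b4. Under that filter 2220 of all 6762 genes were lower and 2066 higher. Both AP arrays lay below both control arrays for 23 of the 31 genes and above them for 4, while over all genes with 4 values the shares were 42.8% and 37%. With any 1 array left out fewer factors were lower, and fewer of all genes were lower too, in fits where a group has 1 array. Of the 17 lower genes, 9 stayed past the threshold whichever array was left out, where a group of 1 array is assumed to vary like the other: Eif1a, Eif2b1, Eif2s2, Eif3c, Eif3j, Eif4e, Eif4ebp1, Eif4g2 and Eif5a.

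**Figure D1:**
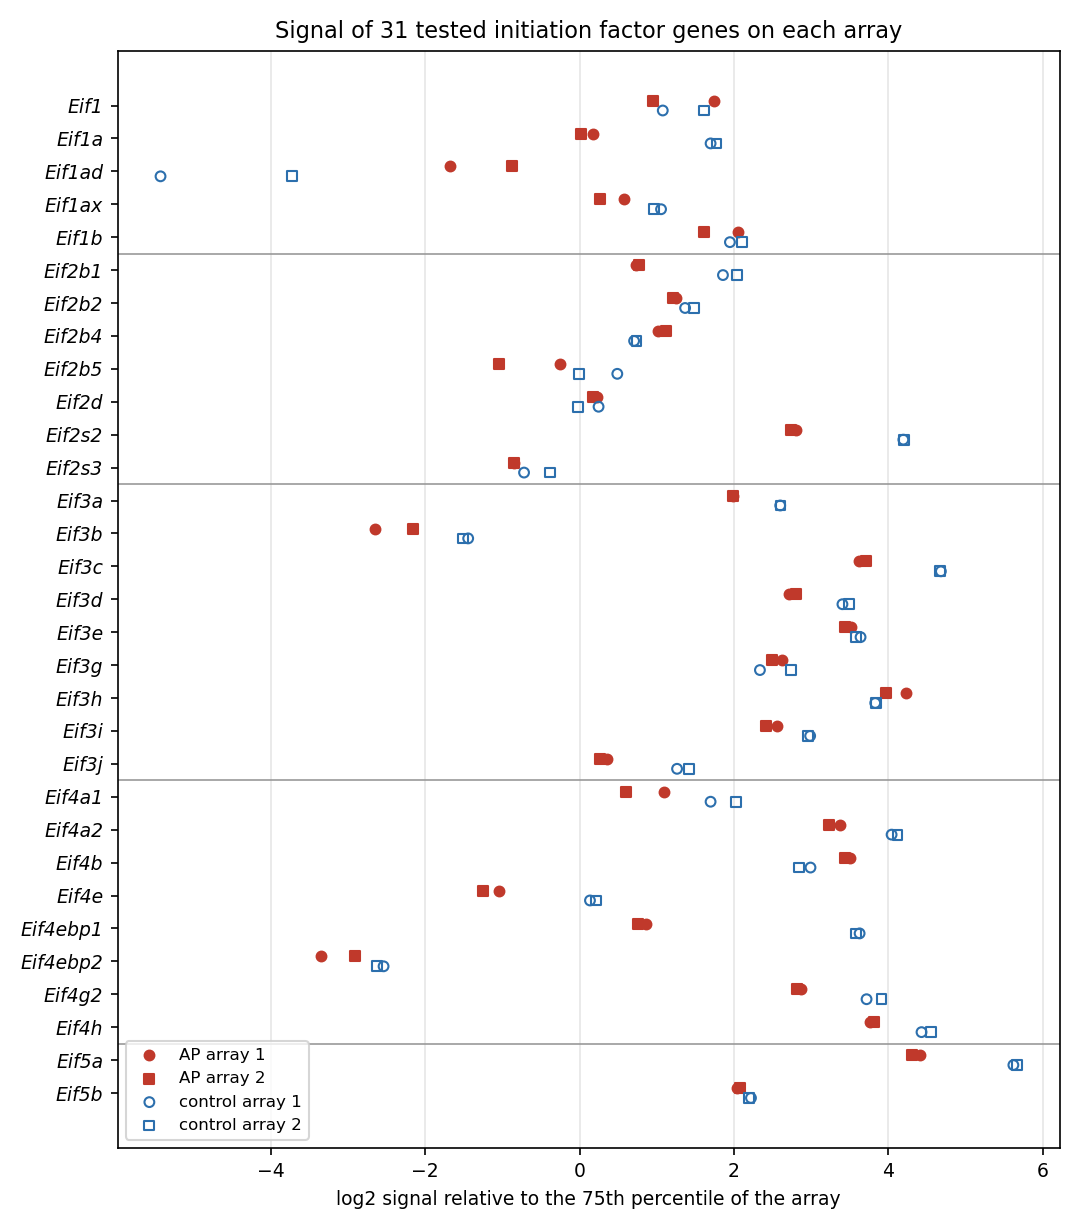
Signal of the 31 tested genes on each array, as log2 relative to the 75th percentile of the array (x axis), with filled red symbols for the AP arrays, open blue symbols for the control arrays and lines between the eIF1, eIF2, eIF3, eIF4 and eIF5 genes. The AP symbols of Eif4ebp1 stand at 0.87 and 0.76, left of its control symbols at 3.63 and 3.58, and the symbols of both groups overlap for Eif1, Eif1b, Eif2d and Eif3g.

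The probes of these genes were bright. With all tested genes cut into 4 equal bins by mean signal, 16 of the 31 fell in the brightest bin and 9 in the next. In the brightest bin 10 of the 16 factors were lower, with a median log2 fold change of -0.65, while 40.6% of all its 2183 genes were lower and their median was -0.08. In the next bin 5 of 9 factors were lower, with a median of -0.58, against 37.2% of its genes and a median of -0.16.

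The median fold change was nearest to 0 for eIF2, further down for eIF3 and furthest for eIF4. For eIF2, 2 of 7 tested genes were lower, a share no larger than the 31.9% of all genes, and the median log2 fold change was -0.30 (range -1.43 to 0.34). For eIF3, 6 of 9 were lower, with a median of -0.61 (range -1.03 to 0.26). Eif3b passed the filter on dim probes only through the control arrays; over the 8 eIF3 genes above background on all 6 scans, 5 were lower. For eIF4, 6 of 8 were lower and 1 was higher, with a median of -0.88 (range -2.79 to 0.56). The ranges overlapped, and no test was made between groups, because genes are not replicates of a condition. The medians kept this order in the values reported and in each of the 18 alternative settings, and each lay below that of all genes in all 19. Not every setting could change this. A block or another variance model leaves the group medians as they are, and leaving out the scaling shifts all genes alike. The eIF2 and eIF3 medians were close with no filter on dim probes (-0.594 and -0.615) and under quantile normalization (-0.364 and -0.426). The closest approach to all genes was eIF2 at -0.067 under normexp background correction with quantile normalization, where all genes stood at -0.014. Leaving out control array 2 moved the eIF2 median to -0.14. Without control array 1 or control array 2 fewer eIF3 and eIF4 genes were lower, and so were fewer of all genes. Counting the 6 scans as separate replicates raised the eIF2 count to 5 of 7, and without scaling all 7 eIF2 genes, all 9 eIF3 genes and 7 of 8 eIF4 genes were lower, so the counts did not keep the order of the medians.

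**Figure D2:**
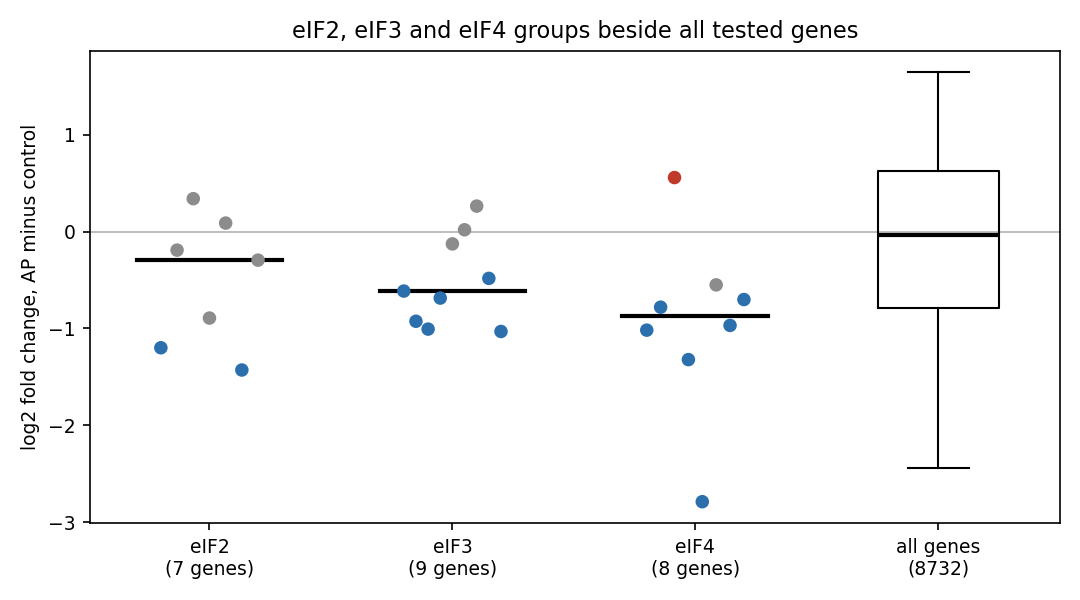
Log2 fold change, AP minus control, of each tested eIF2, eIF3 and eIF4 gene (points; blue is lower, red is higher, grey is not past the threshold; bars are medians) beside the distribution over 8732 genes (box from the 25th to the 75th percentile, whiskers from the 5th to the 95th, line at the median). The group medians stand at -0.30, -0.61 and -0.88, and the box runs from -0.79 to 0.62.

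Promoter sequences show what these genes share outside the measured values. RefSeq (build GRCr8) gave the 250 bases before the annotated start for 29 of the 34 genes; Eif3e, Eif3h, Eif4b, Eif4e3 and Eif4ebp1 are not matched. These were searched on both strands for 4 motifs: CACGTG, the E-box that Myc and related factors bind; TGATGNAA, the core of the element bound by ATF4 with a C/EBP factor; CCGGAAG, the core of ETS factors; and the palindromic motif of NRF1. No match of one motif overlapped a match of another. An E-box was found for 5 of 29 genes (4 lower, 1 not past the threshold), while 5.59% of all 33469 promoters and 7.59% of 7472 promoters of tested genes hold it. The ETS core was found for 11 genes, 5 of them lower and 1, Eif1ad, higher, while 7.27% of all promoters and 14.3% of those of tested genes hold it. The ATF4 core was found for Eif2s2, which was lower, and for Eif3g, which was not past the threshold (3.4% of all promoters, 2.37% of those of tested genes), and the NRF1 motif for none (0.762% of all promoters and 1.63% of those of tested genes). A match is only a description of the letters. Every E-box and ATF4 core found, and the ETS core of Eif2b1 and Eif3d, are shown 5′ to 3′ on the gene's strand, with the motif in capitals, so that called and uncalled genes with an E-box or ATF4 core can be read beside each other; of the genes with an ETS core these 2 are examples, both lower, with a single match.
Eif4e, E-box 237 bases before the start, chr2:229740503-229740537, plus strand: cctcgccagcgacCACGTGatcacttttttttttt
Eif4e, E-box 80 bases before the start, chr2:229740657-229740694, plus strand: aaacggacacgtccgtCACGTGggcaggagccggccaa
Eif4h, E-box 168 bases before the start, chr12:27719508-27719545, plus strand: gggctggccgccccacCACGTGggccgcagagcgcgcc
Eif5a, E-box 206 bases before the start, chr10:55143406-55143443, minus strand: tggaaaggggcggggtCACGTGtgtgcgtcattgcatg
Eif3b, E-box 57 bases before the start, chr12:19334804-19334841, minus strand: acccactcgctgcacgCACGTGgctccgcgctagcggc
Eif1b, E-box 54 bases before the start, chr8:129081088-129081125, plus strand: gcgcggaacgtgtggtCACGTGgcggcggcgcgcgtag
Eif2s2, ATF4 core 36 bases before the start, chr3:163855583-163855622, minus strand: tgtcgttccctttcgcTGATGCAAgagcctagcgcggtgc
Eif3g, ATF4 core on the opposite strand 239 bases before the start, chr8:27710162-27710196, minus strand: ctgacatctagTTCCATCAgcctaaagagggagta
Eif2b1, ETS core on the opposite strand 82 bases before the start, chr12:37686477-37686515, plus strand: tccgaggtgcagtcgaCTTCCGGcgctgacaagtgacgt
Eif3d, ETS core on the opposite strand 129 bases before the start, chr7:111432847-111432885, minus strand: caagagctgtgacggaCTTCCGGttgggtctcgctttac

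Eif4ebp1, counted here with the eIF4 genes, had the largest fall of all 31 genes. It encodes 4E-BP1, the inhibitor that binds eIF4E. Its log2 signal was 0.87 and 0.76 on AP arrays, against 3.63 and 3.58 on control arrays. The AP arrays lay far below the control arrays, and the arrays of a group lay close together. The fall was 6.91-fold, or -2.79 ± 0.10 on the log2 scale (± SE of the limma fit to 2 arrays in each group, as in all values below; adjusted p = 0.000746), at the 3.76th percentile of the fold changes of all tested genes. It stayed past the threshold in all 18 alternative settings, at -3.75 to -2.27. Eif4ebp2, the related inhibitor 4E-BP2, had -3.35 and -2.91 on AP arrays, where no scan had it well above background, against -2.54 and -2.62 on control arrays. It did not pass the threshold (-0.55 ± 0.19, adjusted p = 0.0777), and passed as lower in 3 other settings: without scaling (-1.51, adjusted p = 0.00251), with 6 scans as separate replicates (-0.46, 0.0297) and without AP array 2 (-0.77, 0.0370). Its direction turned when the background was corrected by normexp before the 75th percentile shift (0.36).

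Eif4e, the cap-binding protein that 4E-BP1 holds, was lower as well, and so were both helicase genes and Eif4g2. Of the 2 eIF4G genes on the array only Eif4g2 was tested, so the change of an eIF4G that binds eIF4E is not known. Eif4e had -1.05 and -1.25 on AP arrays and 0.14 and 0.21 on control arrays, 2.50-fold lower (-1.32 ± 0.12, adjusted p = 0.00351). The groups were separate; the call was lost under that normexp setting (-0.42, adjusted p = 0.257). Eif4g2 encodes a scaffold related to eIF4G that lacks the eIF4E-binding part, and had 2.87 and 2.82 on AP arrays against 3.72 and 3.91 on control arrays. It was 1.96-fold lower (-0.97 ± 0.12, adjusted p = 0.00623). For the helicase gene Eif4a1 the signals were 1.09 and 0.60 on AP arrays and 1.70 and 2.03 on control arrays (-1.02 ± 0.23, adjusted p = 0.0299), with arrays of a group further apart than for most other members. Its paralog Eif4a2 stood at 3.37 and 3.23 on AP arrays and at 4.04 and 4.12 on control arrays (-0.78 ± 0.11, adjusted p = 0.00857). Whether each probe also binds the other paralog's RNA was not tested. Eif4a1 lost its call without control array 1 (adjusted p = 0.0713), control array 2 (0.128) or AP array 2 (0.0816) and with no filter on dim probes (0.0547), and Eif4a2 without control array 2 (0.0536).

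The helicase partners eIF4B and eIF4H went opposite ways. Eif4b had log2 signals of 3.50 and 3.44 on AP arrays, against 2.99 and 2.84 on control arrays, and was 1.47-fold higher (0.56 ± 0.11, adjusted p = 0.0195). Its dimmer probe had -1.15 and -1.38 on AP arrays and -1.52 and -1.84 on control arrays, in the same direction but not past the threshold (0.42 ± 0.17, adjusted p = 0.116). For both probes the AP arrays lay above the control arrays. The rise of Eif4b holds only relative to the whole array: without scaling it was -0.40 (adjusted p = 0.0676). The call was also lost with any 1 array left out, namely control array 1 (adjusted p = 0.0505), control array 2 (0.0823), AP array 1 (0.0789) or AP array 2 (0.0697), and under the normexp setting with percentile shift (0.11, adjusted p = 0.778). Eif4h had 3.76 and 3.81 on AP arrays against 4.43 and 4.55 on control arrays, 1.63-fold lower (-0.70 ± 0.10, adjusted p = 0.00964), and lost its call without control array 2 (0.0531).

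**Figure D3:**
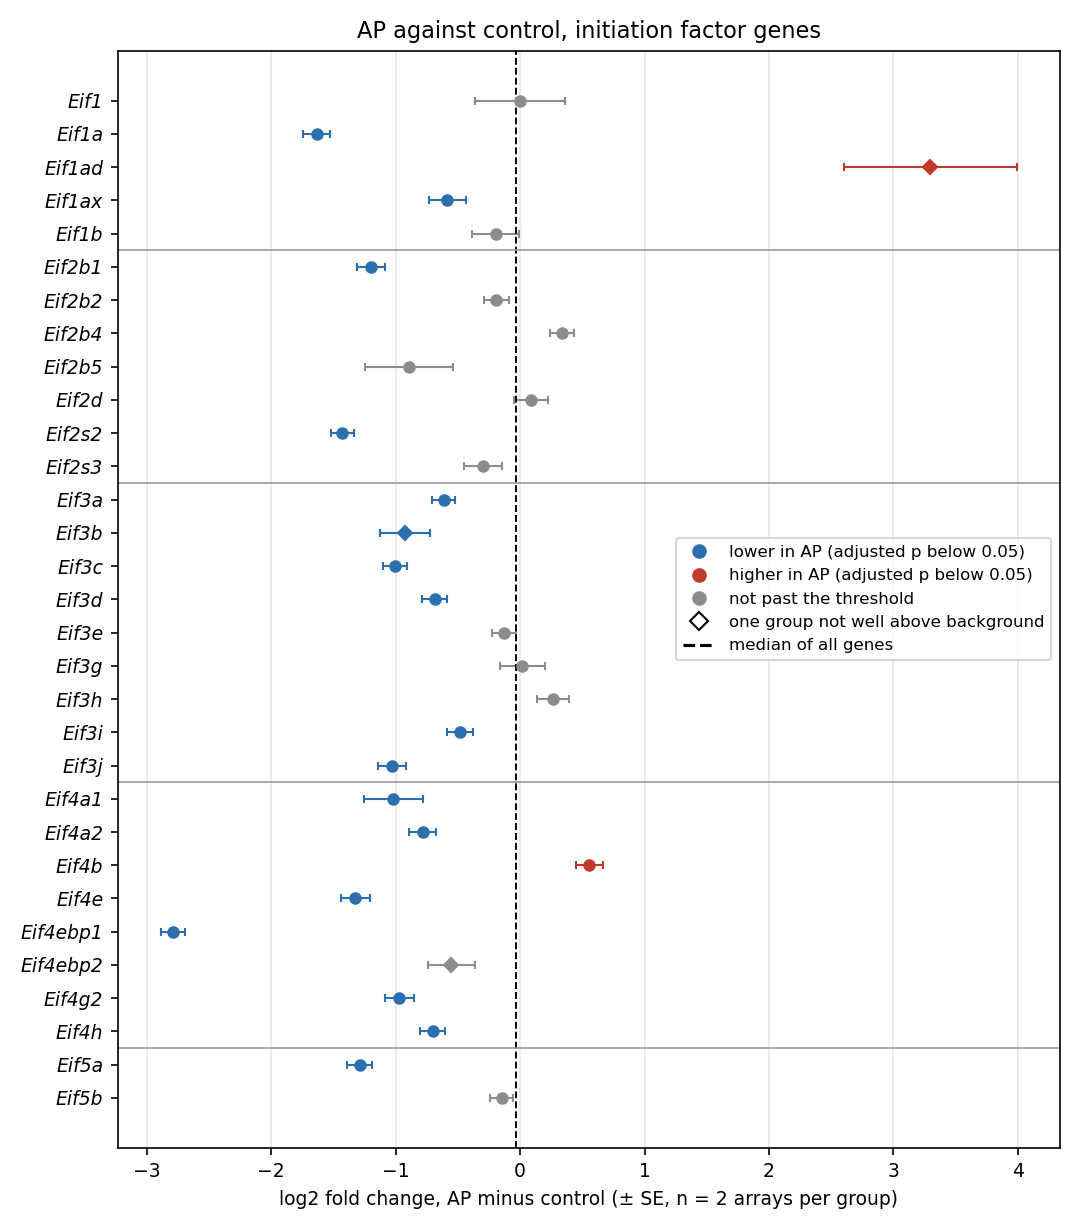
Log2 fold change, AP minus control, with its SE (bars, n = 2 arrays per group) for the 31 tested genes, in blue where lower, red where higher and grey where not past the threshold; diamonds mark genes not well above background in a group, and the dashed line is the median of all genes at -0.03. Eif4ebp1 at -2.79 lies left of the other genes, and Eif1ad, fitted at 3.30 with its control signals at background, and Eif4b at 0.56 are the called genes right of the line.

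Of the 9 tested genes of eIF3, the scaffold that keeps the small subunit open for messenger RNA, 6 were lower, by a factor of about 2 or less. Subunits without a named probe on the array were not measured. Eif3c, a core subunit, had 3.62 and 3.71 on AP arrays against 4.68 and 4.67 on control arrays and was 2.01-fold lower (-1.01 ± 0.10, adjusted p = 0.00397). Eif3j, a loosely bound subunit, had 0.36 and 0.26 on AP arrays and 1.26 and 1.42 on control arrays, 2.04-fold lower (-1.03 ± 0.11, adjusted p = 0.00510). In both the groups were clearly separate. Eif3a, the largest core subunit, stood at 1.98 and 1.99 on AP arrays against 2.60 on both control arrays (-0.61 ± 0.09, adjusted p = 0.00977). Eif3d and Eif3i, 2 further subunits, were 1.61-fold and 1.40-fold lower (-0.69 ± 0.10 and -0.48 ± 0.11; adjusted p = 0.00997 and 0.0259). Eif3b was not well above background on the AP arrays (-2.64 and -2.16, against -1.44 and -1.51 on control arrays). With AP signals under the lowest signal well above background on their scan raised to that signal, Eif3b was 1.82-fold lower. The limma fit, made without this step, gave an adjusted p of 0.0258. It passed the filter only through the control arrays, so this p is no independent support. The 1.82-fold value is no minimum, as the log2 fold change ran from -1.88 to 0.11 over 17 alternative settings.

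Some eIF3 calls were lost with an array left out, which also leaves fewer degrees of freedom. The cause of these losses was not tested. With an array or second scan left out, log2 fold changes were -0.62 to -0.61 for Eif3a and -0.74 to -0.64 for Eif3d. They were -1.17 to -0.68 for Eif3b and -0.56 to -0.41 for Eif3i. Without control array 1 the calls of Eif3a (adjusted p = 0.0502), Eif3b (0.110) and Eif3i (0.0995) were lost, and without control array 2 those of Eif3a (0.0547), Eif3b (0.105), Eif3d (0.0580) and Eif3i (0.0984). Eif3i was also lost without AP array 1 (0.0540) or AP array 2 (0.0938), under quantile normalization (0.0952), in the deposited table (0.0879) and, narrowly, with no filter on dim probes. In the normexp setting with percentile shift Eif3b, the dimmest of them, was at 0.11 (adjusted p = 0.759).

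Another 3 eIF3 subunits did not pass the threshold. Eif3h had 4.22 and 3.97 on AP arrays, against 3.83 and 3.84 on control arrays (0.26 ± 0.13, adjusted p = 0.163). Eif3e had 3.52 and 3.44 on AP arrays and 3.64 and 3.58 on control arrays (-0.13 ± 0.10, adjusted p = 0.332). For Eif3g the groups overlapped, at 2.62 and 2.49 on AP arrays and 2.34 and 2.74 on control arrays (0.02 ± 0.18, adjusted p = 0.940). Without scaling Eif3h (-0.69) and Eif3g (-0.94) were below 0. The log2 fold changes of eIF3 subunits, which work in a single complex, ran from -1.03 for Eif3j to 0.26 for Eif3h.

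The eIF2 genes were split. Eif2s2, which encodes the beta subunit of eIF2, had log2 signals of 2.80 and 2.74 on AP arrays, against 4.19 and 4.20 on control arrays. It was 2.69-fold lower (-1.43 ± 0.09, adjusted p = 0.00186), and no array of a group came near the other group. Eif2s3, the gamma subunit that binds GTP and transfer RNA, had -0.85 on both AP arrays and -0.72 and -0.39 on control arrays and did not pass (-0.30 ± 0.15, adjusted p = 0.179); its sign turned in the normexp setting with percentile shift (0.08). The alpha subunit gene Eif2s1, whose protein carries the regulatory phosphorylation, was not tested: its signals were -3.96 and -4.16 on AP arrays, at background on every scan, and -2.15 and -2.84 on control arrays, above background on 2 of 3 scans.

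Of the 4 measured genes for eIF2B, the exchange factor that recharges eIF2 with GTP, only Eif2b1 was lower at the threshold. Eif2b1, the alpha subunit, had 0.73 and 0.77 on AP arrays against 1.86 and 2.04 on control arrays, 2.30-fold lower (-1.20 ± 0.11, adjusted p = 0.00378). Eif2b4, the delta subunit, had 1.01 and 1.11 on AP arrays and 0.71 and 0.74 on control arrays, just short of the threshold in the other direction (0.34 ± 0.10, adjusted p = 0.0531). It passed as higher in 7 other settings and was lower without scaling (-0.62, adjusted p = 0.00915). Eif2b2, the beta subunit, was at -0.19 ± 0.10 (adjusted p = 0.182). The epsilon subunit gene Eif2b5, which carries the catalytic part, varied within each group (-0.26 and -1.05 on AP arrays, 0.49 and -0.01 on control arrays) and was at -0.89 ± 0.35 (adjusted p = 0.107). Eif2d, which delivers transfer RNA to ribosomes without GTP, had overlapping groups (0.09 ± 0.14, adjusted p = 0.622).

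Of the eIF1 genes, which encode the small proteins that keep scanning faithful, both that encode eIF1A were lower. Eif1a had 0.18 and 0.02 on AP arrays against 1.70 and 1.77 on control arrays and was 3.10-fold lower (-1.63 ± 0.11, adjusted p = 0.00201). Eif1ax, the X-linked gene of the same factor, had 0.58 and 0.27 on AP arrays and 1.06 and 0.96 on control arrays (-0.58 ± 0.15, adjusted p = 0.0387). Cross-binding between these probes was not tested. Eif1ax lost its call without control array 1 (adjusted p = 0.144), control array 2 (0.120) or AP array 2 (0.0988), and in 5 further settings. Eif1 and Eif1b, genes of eIF1 and its close relative, had overlapping groups: Eif1 stood at 1.74 and 0.95 on AP arrays and 1.08 and 1.61 on control arrays, and Eif1b at 2.05 and 1.62 on AP arrays and 1.95 and 2.11 on control arrays.

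Eif1ad, named for a domain it shares with eIF1A, had the larger of the 2 rises. It stood at -1.68 and -0.88 on AP arrays, above background on all 3 scans, and at -5.42 and -3.72 on control arrays, where no scan had it well above background. With control signals under the lowest signal well above background on their scan raised to that signal, Eif1ad was 5.44-fold higher. The limma fit, made without this step, gave an adjusted p of 0.0238. It passed the filter only through the AP arrays, where it is high, so this p is no independent support. The call was lost without AP array 1 (log2 fold change 3.70) or AP array 2 (2.90). The 5.44-fold value is no minimum over the settings. Over 17 alternative settings the log2 fold change ran from 0.48 to 4.15, with 0.83 under normexp with percentile shift. Its probe was dim, in the lowest of the 4 bins of mean signal.

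Eif5a and Eif5b act after the start codon is found. Eif5a, whose protein carries the modified amino acid hypusine and also helps elongation and termination, had 4.40 and 4.30 on AP arrays against 5.62 and 5.66 on control arrays. The groups were far apart, and the gene was 2.44-fold lower (-1.29 ± 0.10, adjusted p = 0.00257). Eif5b, the GTPase that joins the ribosomal subunits, had 2.03 and 2.08 on AP arrays and 2.22 and 2.19 on control arrays and did not pass (-0.15 ± 0.09, adjusted p = 0.250).

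Regulators and later steps of translation were read from 6 lists of 48 genes, 33 of them tested, of which 10 were lower and 4 higher (median log2 fold change -0.31). Over all genes 31.9% were lower and 24.1% higher, so the count of lower genes was at the level of all genes. Among 6 tested genes of eIF2 phosphorylation, 3 were lower and 1 was higher. Eif2ak3, the kinase PERK of the endoplasmic reticulum, had 0.78 and 0.70 on AP arrays against -0.80 and -0.68 on control arrays, 2.79-fold higher (1.48 ± 0.10, adjusted p = 0.00211). Ppp1r15a, the inducible phosphatase subunit GADD34, was 4.49-fold lower (-2.17 ± 0.11, adjusted p = 0.00128), its constitutive counterpart Ppp1r15b 1.28-fold lower (adjusted p = 0.0396), and Atf4, a transcription factor made when eIF2 is phosphorylated, 3.12-fold lower (-1.64 ± 0.15, adjusted p = 0.00359). Of 8 tested mTORC1 and eIF4 kinase genes, Mtor (1.93-fold, adjusted p = 0.00464) and Rps6kb1 (1.31-fold, 0.0324) were lower and Mknk1, a kinase of eIF4E, was 1.64-fold higher (0.0334). None of 5 messenger RNA-binding cofactors passed; they ranged from -0.57 for Pabpc1 (adjusted p = 0.0756) to 0.31 for Paip1 (0.199).

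Of 9 tested elongation and termination genes 3 were lower and 2 were higher, near the 31.9% and 24.1% of all genes, and the median log2 fold change was 0.20. Eef1g, a subunit of elongation factor 1, was 1.82-fold higher (adjusted p = 0.00849) and Eef2, which moves the ribosome along, 1.48-fold higher (0.0160). The release factor genes Etf1 and Gspt1 were 2.73-fold and 2.01-fold lower (adjusted p = 0.00181 and 0.00366), and Eef1e1 1.32-fold lower (0.0418). The recycling factor gene Abce1 was the lower one of 3 recycling and reinitiation genes (1.99-fold, adjusted p = 0.00613). Dohh, an enzyme that makes hypusine on eIF5A, was 2.54-fold lower (adjusted p = 0.00202), while Dhps, the other, varied between the AP arrays (2.02 and 0.05, against -0.14 and -0.25 on control arrays) and did not pass (adjusted p = 0.231). Without scaling Eef1g (-0.10), Eef2 (-0.39) and Mknk1 (-0.24) were below 0. With any 1 array left out Ppp1r15b (adjusted p from 0.103 to 0.137), Rps6kb1 (0.0936 to 0.121), Mknk1 (0.0544 to 0.122), Eef1e1 (0.0827 to 0.140) and Eef2 (0.0533 to 0.0683) lost their calls, and Eef1g lost its call without control array 1 (0.0508) or control array 2 (0.0503). The normexp setting with percentile shift ended the calls of these 6 genes too (adjusted p from 0.284 for Rps6kb1 to 0.987 for Eef1e1).

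**Figure D4:**
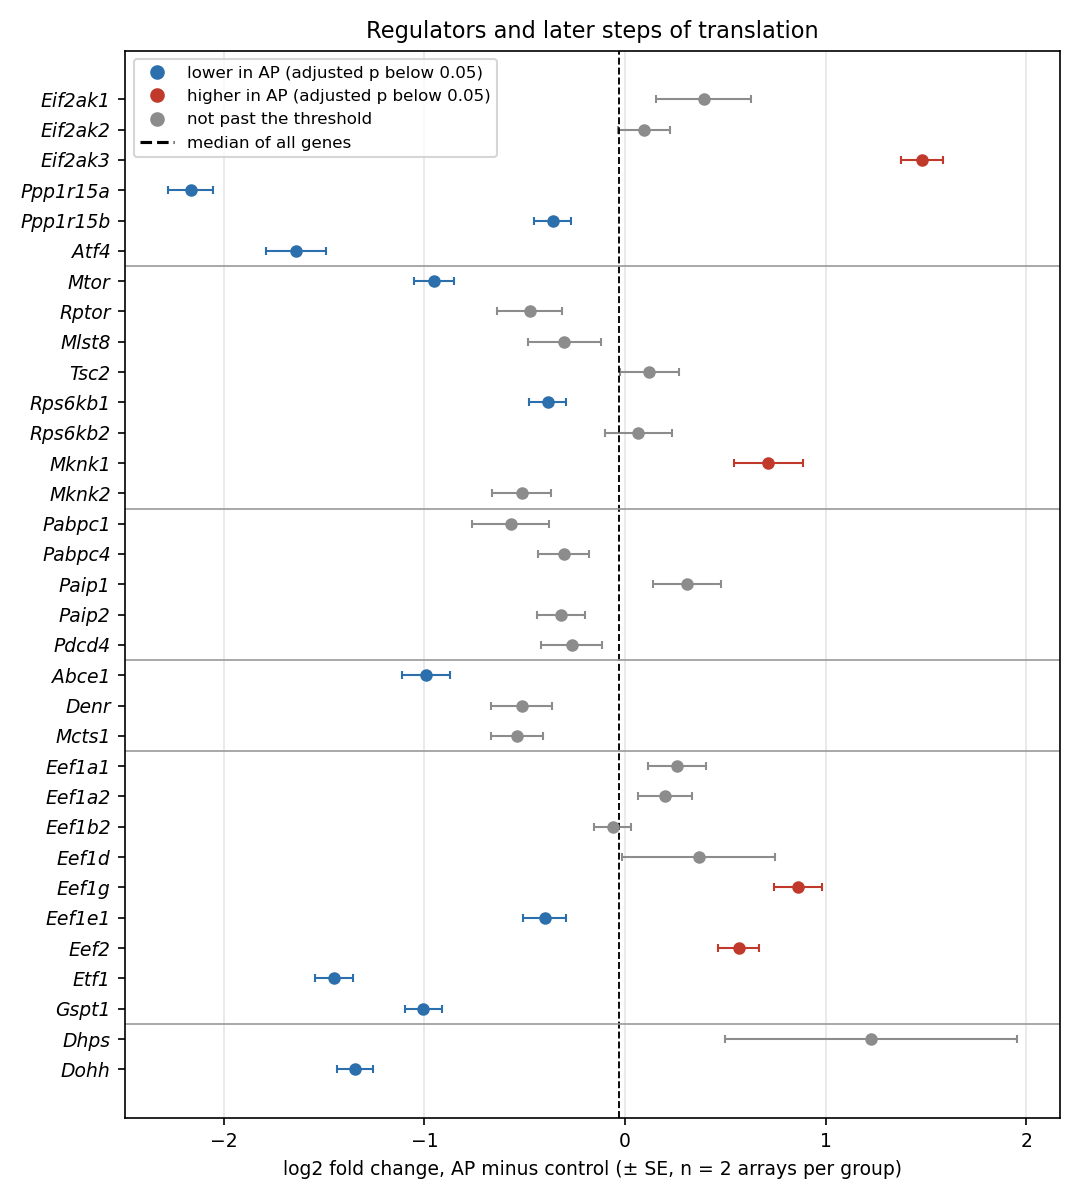
Log2 fold change, AP minus control, with its SE (bars, n = 2 arrays per group, save Mcts1 with 1 control array) for 33 tested genes of the regulation of initiation and of later steps, with lines between the 6 lists, colours as by call and the dashed line at the median of all genes. Eif2ak3 at 1.48 and Ppp1r15a at -2.17 are the called genes furthest to each side.

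**Figure D5:**
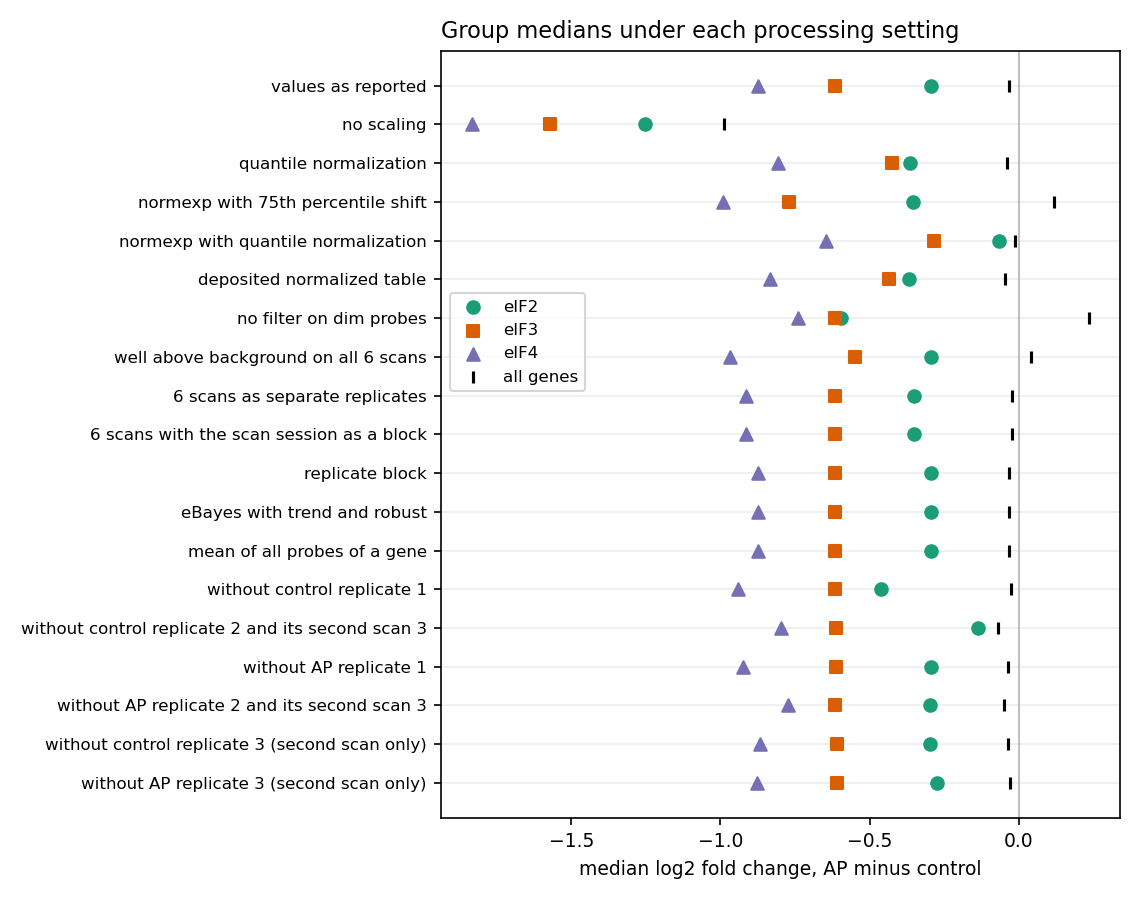
Median log2 fold change, AP minus control, of the eIF2, eIF3 and eIF4 genes and of all genes (symbols) as reported and under 18 alternative settings (y axis). The eIF4 median lies left of the eIF3 median and that left of the eIF2 median in all 19 settings, and without scaling all 4 shift left, with all genes at -0.99.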

How the data were processed

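Per the labels, RNA of each pancreas was depleted of ribosomal RNA, amplified with random primers and labelled with Cy3. Per the file headers, the scanner intensity of each spot was read, background-subtracted and detrended by Agilent Feature Extraction (version 11.0.1.1, per the submitters' processing notes), with no scaling between arrays. The authors also deposited log2 values, distributed nearly alike on every array; the sources used here do not state their scaling or centring. No spot was saturated.

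Spots with an outlier mark were left out, log2 signals were averaged per probe and the 75th percentile of each scan was subtracted. Scans of an array were averaged, because spot deviations correlated above 0.9. Probes above background on at least 3 of 6 scans were kept (13222, of which 13217 could be fitted). AP was set against control in limma 3.58.1 under R 4.3.3 (lmFit and eBayes, two-sided tests), which left 2 residual degrees of freedom. An exact permutation of 2 against 2 arrays cannot go below 0.333. The brightest probe stood for a gene. RefSeq accessions named 14294 of 24684 probes; the design is annotated on rn4, so no probe coordinates are given. Tables and plots were made with pandas 2.3.3, matplotlib 3.10.9 and numpy 2.4.6 under Python 3.11.15, and the fit was tested on simulated data. All factors may be named; of the other lists, called members (at most 4 each way) and those noted as examples. Members, lists and tests were chosen with earlier results of these data known; Pabpc1, Paip1 and Dhps, the promoter motifs and the printed windows were chosen after values were seen.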

Additional observations from a re-analysis of the deposited data

How the results depend on the processing

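With 2 arrays per group, the number of arrays limits every value. Over 18 alternative settings (17 for Eif1ad, Eif3b and Eif4ebp2) the 31 tested factors gave 555 values, of which 463 kept direction and side of the threshold; 38 lost their call, 25 gained one and 29 changed sign. Of 19 called factors, 8 kept their call in every setting: Eif1a, Eif2b1, Eif2s2, Eif3c, Eif3j, Eif4ebp1, Eif4g2 and Eif5a. Causes were not tested, except that settings with fewer arrays have less power by construction.

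Without scaling, 1 factor was higher and 28 were lower, 463 genes were higher and 5453 lower, and the eIF2, eIF3 and eIF4 medians were -1.25, -1.57 and -1.83; Eif2b4 (-0.62), Eif2d (-0.87), Eif3g (-0.94), Eif3h (-0.69), Eif4b (-0.40), Mknk1 (-0.24), Eef1g (-0.10) and Eef2 (-0.39) changed sign. Under normexp with the 75th percentile shift, 1 factor was higher, 562 genes were higher and 1406 lower, and the medians were -0.36, -0.77 and -0.99, relative to 0.12 for all genes; Eif2d (-0.079), Eif2s3 (0.081), Eif3b (0.11), Eif3g (-0.31), Eif3h (-0.11) and Eif4ebp2 (0.36) changed sign. Normexp with quantile normalization gave 4 higher factors and medians of -0.067, -0.29 and -0.65; Eif1 (0.13), Eif1b (0.098), Eif2d (-0.027) and Eif5b (0.021) changed sign. Quantile normalization gave eIF2 and eIF3 medians of -0.36 and -0.43 and the deposited table -0.37 and -0.43; Eif1 (0.15 in both) and Eif5b (0.033 by quantiles, 0.027 in the deposited table) changed sign. With no filter on dim probes 3297 genes were higher, and the eIF2 and eIF4 medians were -0.59 and -0.74. With probes above background on all 6 scans the eIF3 median was -0.55. With 6 scans as separate replicates, also when blocked by scan session, the eIF2 median was -0.35 and Eif3g stood at -0.070.

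With 1 array or second scan left out, higher factors numbered 0 to 2 and lower factors 9 to 17, 1259 to 2101 genes were higher and 1873 to 2792 lower, and the medians were -0.46 to -0.14 for eIF2, -0.62 to -0.61 for eIF3 and -0.94 to -0.77 for eIF4. Eif1 changed sign without control array 2 (0.26), AP array 2 (0.39) or AP scan 3 (0.010), Eif1b without AP array 2 (0.018), Eif2d without control array 2 (-0.047), and Eif3g without control array 1 (-0.18), AP array 1 (-0.046) or control scan 3 (-0.011); none of these is called.

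The replicate number as a block left 1 higher and 14 lower factors: Eif1ax (adjusted p = 0.0618), Eif3b (0.0550), Eif3i (0.0743), Eif4a1 (0.0756) and Eif4b (0.0572) lost their limma calls and Eif2b5 (0.0357) was lower. Deviations of same-numbered arrays correlated with r = -0.21 over 13146 probes, so the numbers were not taken as pairs. A pairing with crossed numbers, chosen after seeing the data, gave 2 higher and 16 lower factors.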
